A study of Mus musculus with 4 samples.

Results

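The cytosolic ribosome of the mouse is built from a small and a large subunit, and nearly every protein in it is encoded by an Rps gene, an Rpl gene, one of the stalk genes Rplp0, Rplp1 and Rplp2, or Rpsa. These genes were taken by name from the gene list of the count tables: Rpl or Rps followed by a digit, with Rplp0, Rplp1, Rplp2 and Rpsa, and without the Rps6k kinase genes, Rps19bp1 and names marked as pseudogenes. The rule gave 87 of the 24421 gene symbols, and 83 of them had enough counts to be tested. The names fitted the data: 75 of the 87 genes had at least 1000 counts in every library, and together they were among the most abundant transcripts measured.

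RNA was sequenced in bulk from J558 allografts, which are tumours grown from the mouse plasmacytoma line J558 under the skin of female BALB/c mice. The Vehicle mice received 0.5% methylcellulose and the TAK-931 mice received TAK-931, an oral inhibitor of the replication kinase CDC7, in daily doses of 60 mg/kg over 6 days. Each group had 2 independent samples, named Vehicle-1, Vehicle-2, TAK-931-1 and TAK-931-2, and the comparison asked how the tumour transcriptome differed between treated and vehicle mice. No genotype, mouse age or batch was given in the labels, and the mice are immunocompetent hosts, so the RNA came from tumour and host cells together.

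Total counts were between 16487902 and 19589339 per library, and a count of 0 allowed up to 3 counts, or between 0.153 and 0.182 CPM. CPM is a gene's count divided by the library total and multiplied by 1000000, and the levels below use totals scaled between libraries by TMM. The labels called the cells B lymphocytes, and all 7 plasma cell markers examined were detected in all 4 libraries, with summed levels of 9671 and 10243 CPM in Vehicle and 4783 and 13589 CPM in TAK-931-1 and TAK-931-2. Host markers were higher in both treated libraries for 3 of 4 cell types, and TAK-931-1 stood apart. In Vehicle-1, Vehicle-2, TAK-931-1 and TAK-931-2, the summed levels were 59.4, 48.4, 997 and 88.0 CPM for 8 T cell genes and 458, 383, 6264 and 1217 CPM for 8 macrophage genes. They were 1883, 2138, 14791 and 5101 CPM for 7 fibroblast genes and 107, 110, 895 and 19.7 CPM for 10 skeletal muscle genes. Both treated libraries lay above both Vehicle libraries for 7 T cell, 7 macrophage and 6 fibroblast genes and for 0 muscle genes, and the part of these cells in the values below was not tested. None of these host markers was at 0 except 2 muscle genes in TAK-931-2. Values are given by library for this reason. In bulk RNA, fewer cells of a type and less RNA per cell cannot be told apart.

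Ribosomal protein genes are transcribed at high rates in growing and secreting cells, and their products are needed in equal numbers because each ribosome holds 1 copy of nearly every protein. Most of their mRNAs begin with a cytidine followed by a run of pyrimidines, the 5′ terminal oligopyrimidine or TOP motif, through which the kinase mTORC1 controls their translation. Plasma cells, which secrete antibody in large amounts, depend on a large supply of ribosomes.

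RefSeq start sites of build GRCm38.p6 were matched for 66 of the 87 genes. The 30 bases shown run from 15 before the annotated start to 15 from it, 5′ to 3′ on the gene's strand, and the capitals mark the pyrimidine run that begins with C at the start. The first 5 genes carry the run at the start, which for Rps21 is 1 of 2 annotated starts, and the last 3 are genes discussed below that do not. Carriers are over-represented in this choice, since only 14 of the 66 genes had the run at an annotated start.
Rps6: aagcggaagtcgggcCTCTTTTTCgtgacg
Rpl15: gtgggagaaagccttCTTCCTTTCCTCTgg
Rpl28: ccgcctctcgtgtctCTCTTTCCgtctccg
Rplp2: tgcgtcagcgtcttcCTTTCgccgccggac
Rps21: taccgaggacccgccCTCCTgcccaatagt
Rpl7l1: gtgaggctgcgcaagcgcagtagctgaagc
Rpl36al: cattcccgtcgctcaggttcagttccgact
Rpl22l1: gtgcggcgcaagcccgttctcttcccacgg
The windows lie at chr4:86857353-86857382 on the minus strand for Rps6, chr14:18270972-18271001 on the minus strand for Rpl15, chr7:4792950-4792979 on the plus strand for Rpl28, chr7:141447636-141447665 on the plus strand for Rplp2, chr2:180257364-180257393 on the plus strand for Rps21, chr17:46782642-46782671 on the minus strand for Rpl7l1, chr12:69184053-69184082 on the minus strand for Rpl36al and chr3:28805493-28805522 on the plus strand for Rpl22l1.

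A C followed by at least 4 pyrimidines stood at an annotated start of 14 of the 66 genes (21.2%), against 3.01% of all 27025 genes with a start site in the same table. One of the 14 is Rps27rt, whose RefSeq start lies on chromosome 9 while the count tables place the gene on chromosome 3. Within 10 bases of the start, a run was present in 60.6% of the ribosomal protein genes and 34.4% of all genes. The ratio of the shares was smaller there and the difference in percentage points larger. In the 300 bases from 250 before to 50 after the start, the letters CCGGAAG were found on either strand in 39.4% of the ribosomal protein genes and 9.93% of all genes. The letters GCCATNTT were present in 19.7% against 6.96%, and TATAAA in 10.6% against 15.7%. These are descriptions of annotated starts. Rps6, the substrate of S6 kinase and a gene with the run, was at 1720 and 1589 CPM in Vehicle and 1058 and 1322 CPM in TAK-931, with groups that did not overlap (log2 fold change −0.48, SE 0.25). Among the tested genes with a start site, 13 had a run at the start. Their median log2 fold change (TAK-931 over Vehicle) was −0.42 (range −0.60 to 0.28), where the 0.28 was Rps27 with 34 to 45 counts. The 50 without a run at the start, which include low-count paralogs, had −0.26 (range −0.68 to 2.31). Some of the 50 have a run within 10 bases of the annotated start, so these sets do not separate genes with and without the motif. The ranges overlapped and the difference was not tested.

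Ribosomal protein genes as a whole were lower in both TAK-931 libraries than in both Vehicle libraries. They took 10.95% of all gene counts in Vehicle-1 and 11.34% in Vehicle-2, but 7.98% in TAK-931-1 with 9.99% in TAK-931-2. The groups did not overlap. The means were 11.1% ± 0.275 in Vehicle and 8.98% ± 1.42 in TAK-931 (SD, n = 2), a difference of −2.16 percentage points. The exact two-sided permutation test gave p = 0.333, the smallest that 2 against 2 libraries allow. The 95% Wilson interval of each share was narrow, from 10.94% to 10.97% in Vehicle-1, but intervals cover counting error only and the 2 TAK-931 libraries differed from each other by far more than that. Since both mates of a read pair appear to be counted singly, the counting error is larger than these intervals show.

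**Figure D1:**
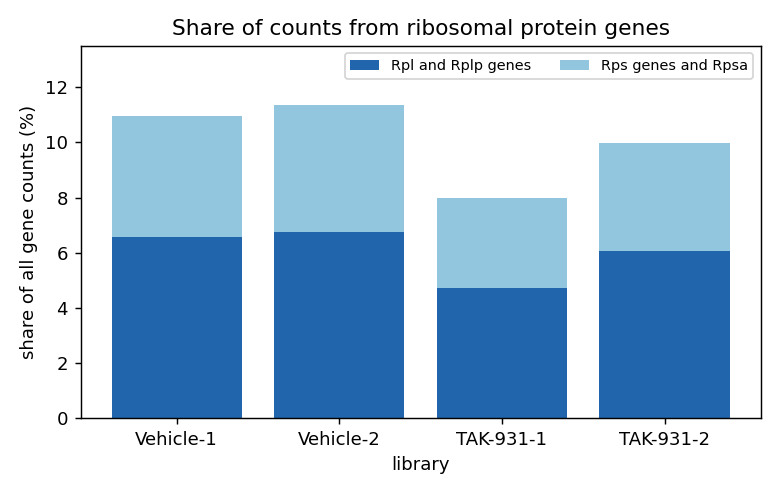
Share of all gene counts (percent, y axis) taken by the 53 Rpl and Rplp genes and the 34 Rps genes and Rpsa in each of the 4 libraries. Both TAK-931 bars are lower than both Vehicle bars, and TAK-931-1, at 7.98%, is the lowest.

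The subunits were lower together. The Rps genes and Rpsa held 4.37% and 4.59% of counts in Vehicle and 3.26% and 3.93% in TAK-931-1 and TAK-931-2, and the Rpl and Rplp genes held 6.58% and 6.76%, then 4.72% and 6.06%. The ratio of small to large subunit counts was 0.665 and 0.679 in Vehicle and 0.692 and 0.648 in TAK-931 (means 0.672 ± 0.00996 and 0.670 ± 0.0308, SD, n = 2). The exact permutation test gave p = 1. Median log2 fold changes were −0.29 for the 31 small subunit genes tested, of which 29 were below 0, and −0.33 for the 44 large subunit genes tested, of which 43 were below 0. The difference of the mean ratios was smaller than the spread between libraries of either group.

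Gene by gene, no ribosomal protein gene passed the test in the edgeR quasi-likelihood fit. None of the 83 had an adjusted p (Benjamini-Hochberg over all genes) below 0.05, as was the case for 0.0% of all 13669 genes tested. The lowest adjusted p was 0.275. At an unadjusted p below 0.05 there were 2 genes lower in TAK-931, Rpl7l1 and Rps21, and 0 higher, where 6.55% of all genes were lower and 11.6% higher, 18.1% in either direction. DESeq2 and limma-voom also called 0 of the ribosomal protein genes, while DESeq2 called 10.3% of all genes. The p-values measure the spread between independent tumours, of which there were 2 per group.

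The direction was shared by most genes, with a small size. The fitted log2 fold change was below 0 in 76 of the 83 genes, where 49.0% of all genes were below 0, and its median was −0.31, where the median of all genes was 0.02. Both TAK-931 libraries were below both Vehicle libraries for 66 genes, which is 79.5% of those tested, where 32.7% of all genes did so. Both were above for 1 gene, Rps27, where 30.0% of all genes did so. The remaining 16 genes overlapped, while 62.7% of all genes did not overlap in one direction or the other. The genes share their libraries and are not replicates of the treatment.

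The 2 TAK-931 libraries differed in size. Over the 75 genes with at least 1000 counts in every library, the log2 ratio to the Vehicle mean had a median of −0.42 in TAK-931-1, with quartiles of −0.61 and −0.25 and a range from −0.92 to 0.32. In TAK-931-2 the median was −0.26, with quartiles of −0.32 and −0.16 and a range from −0.57 to 0.03. The genes spread more widely within TAK-931-1 than within TAK-931-2. The Vehicle libraries ran from −0.12 to 0.12, but they are mirror images about their own mean, each showing only part of their difference, so their spread is not comparable with that of the treated libraries. TAK-931-1 lay below TAK-931-2 for 56 of the 75 genes. The standard errors of these genes' log2 fold changes were 0.22 to 0.32, which is close in size to the median difference of −0.32.

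**Figure D2:**
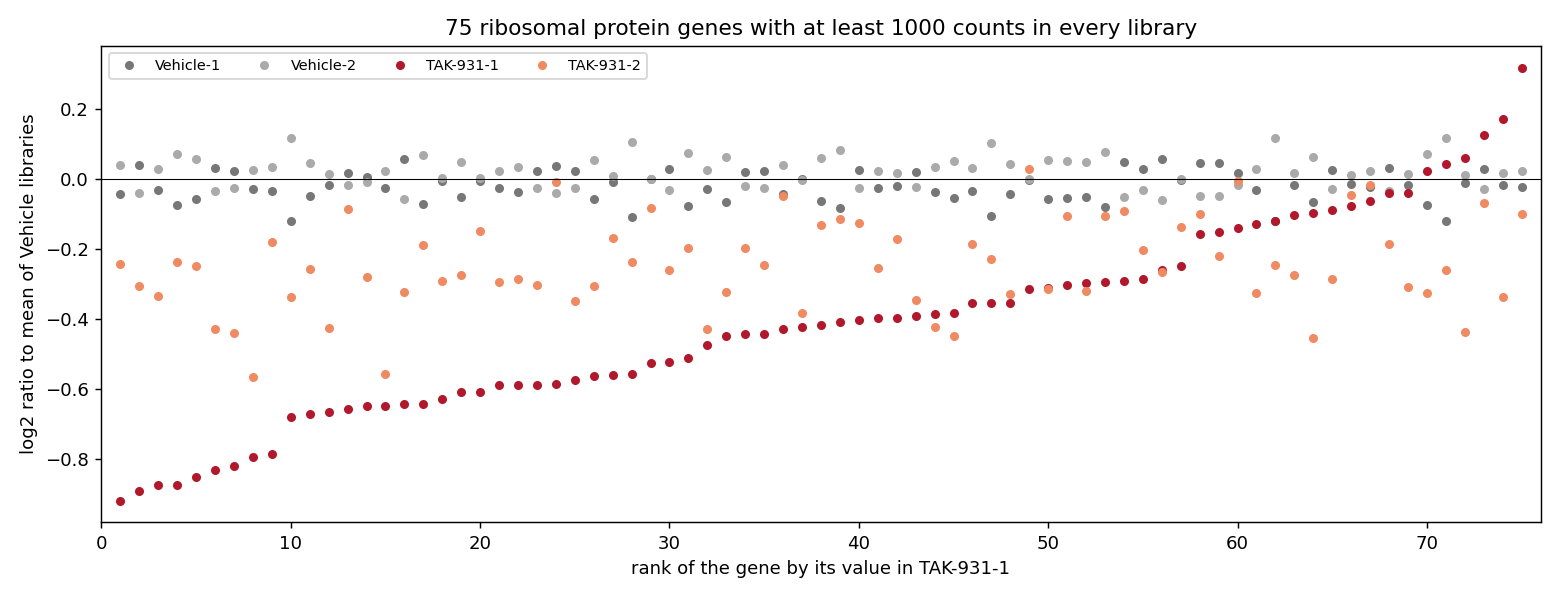
Log2 ratio to the mean of the Vehicle libraries (y axis) for the 75 ribosomal protein genes with at least 1000 counts in every library, ranked along the x axis by their value in TAK-931-1, with 1 point per library. Vehicle points, which mirror each other about their own mean, stay between −0.12 and 0.12, TAK-931-1 points run from −0.92 to 0.32, and TAK-931-2 points run from −0.57 to 0.03.

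The 3 stalk genes were not alike in their values. Rplp0, the base of the stalk that recruits the translation factors, had 2583 and 2847 CPM in Vehicle and 1735 and 2383 CPM in TAK-931-1 and TAK-931-2, so its groups did not overlap. Rplp2, a stalk protein that binds Rplp0, was at 1598 and 1711 CPM against 1085 and 1368 CPM. Rplp1, its partner on the stalk, was at 1974 and 2038 CPM against 1920 and 1983 CPM and overlapped. The log2 fold changes were −0.40 (SE 0.27) for Rplp0, −0.43 (SE 0.25) for Rplp2 and −0.04 (SE 0.22) for Rplp1, with adjusted p of 0.419, 0.364 and 0.926 in the edgeR fit. The sign for Rplp1 was not stable, at 0.01 with median-of-ratios scaling and 0.03 with at least 10 counts required in every library. The difference between Rplp1 and the other two was not tested. Rpsa, a small subunit protein also known as the laminin receptor, had 3069, 3073, 2589 and 2794 CPM and a log2 fold change of −0.19 (SE 0.23, adjusted p = 0.621 in the edgeR fit).

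Rpl5 and Rpl11 form a complex with 5S rRNA that joins the large subunit and, when free, binds MDM2. Rpl5 was at 2113 and 2287 CPM in Vehicle and 1217 and 1853 CPM in TAK-931-1 and TAK-931-2, all below Vehicle. Rpl11 was at 1389 and 1280 CPM against 1114 and 1110 CPM, and the TAK-931 libraries were nearly equal. The log2 fold changes were −0.52 (SE 0.30) for Rpl5 and −0.26 (SE 0.23) for Rpl11, with adjusted p of 0.366 and 0.506 in the edgeR fit. In the tables, 47.7% of the exon bases of Rpl5 also lie within Fam69a on the opposite strand, and the strand setting of the counting was not given in the sources used here.

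The lowest fold changes belonged to Rpl7l1, Rpl36al, Rpl18, Rps21 and Rpl8. Rpl7l1 (chromosome 17, 46773907 to 46782656), a paralog of Rpl7, was at 170.5 and 176.8 CPM in Vehicle and 100.04 and 117.3 CPM in TAK-931, a log2 fold change of −0.68 (SE 0.22, edgeR unadjusted p = 0.032, adjusted p = 0.275). Rps21 (chromosome 2, 180257379 to 180258444), a small subunit protein, was at 983 and 1016 CPM against 638.1 and 679 CPM, a log2 fold change of −0.60 (SE 0.22, edgeR unadjusted p = 0.0495, adjusted p = 0.276). In these genes TAK-931-1 and TAK-931-2 were close to each other and well below both Vehicle values.

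Rpl18 was at 1771 and 1692 CPM in Vehicle and 972.9 and 1287 CPM in TAK-931. Rpl8, a large subunit protein next to the peptidyl transferase centre, was at 2431 and 2530 CPM against 1353 and 1966 CPM. The log2 fold changes were −0.62 (SE 0.26) and −0.58 (SE 0.29), with edgeR adjusted p of 0.287 and 0.321. Both groups were separate for both genes, and TAK-931-1 was the lower of the treated libraries.

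The highest fold changes rested on very few counts or on TAK-931-1. Rpl3l, a paralog used in skeletal and heart muscle, had counts of 0 and 10 in Vehicle and 56 and 1 in TAK-931-1 and TAK-931-2. Rps4l had 54, 30, 128 and 30 counts, and Rpl39l, a paralog used in the testis, had 20, 4, 36 and 0. The fitted log2 fold changes were 2.31 (SE 2.16), 0.76 (SE 0.87) and 0.42 (SE 1.90) with edgeR adjusted p of 0.538, 0.609 and 0.907, and the groups overlapped for all 3 genes. TAK-931-1 was highest in each, and without it the fitted value of Rps4l was −0.52 and that of Rpl39l was also below 0. The muscle markers were also highest in that library, and their part in the Rpl3l counts was not tested.

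Rpl22l1, a paralog of Rpl22, had 44.41 and 40.16 CPM in Vehicle, 78.28 CPM in TAK-931-1 but 36.58 CPM in TAK-931-2, and a log2 fold change of 0.44 (SE 0.42, edgeR adjusted p = 0.545). TAK-931-1 stood above both Vehicle libraries and TAK-931-2 below both, and without TAK-931-1 the log2 fold change was −0.21.

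**Figure D3:**
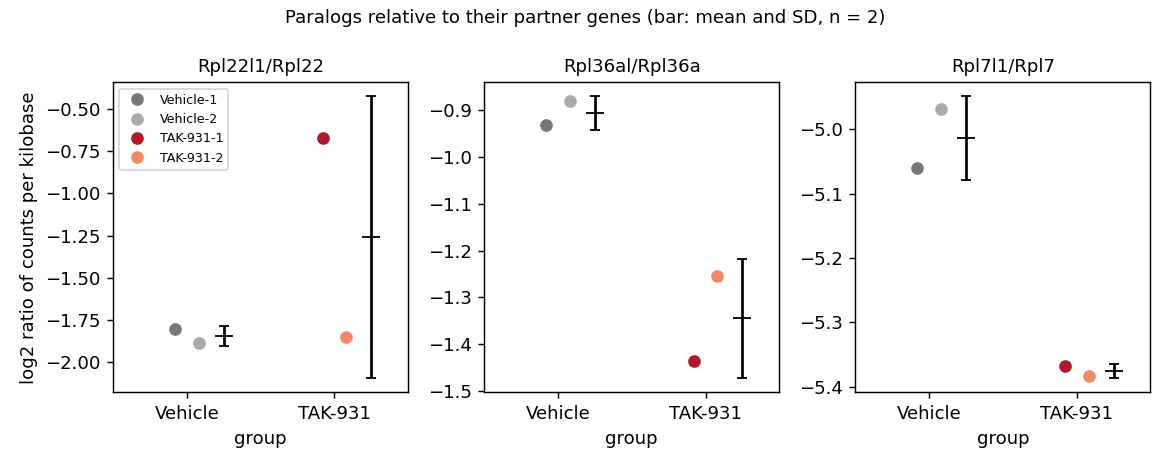
Log2 ratio of counts per kilobase of a paralog to its partner gene (y axis, each panel with its own range) in the Vehicle and TAK-931 libraries, with 1 point per library and bars for the mean and SD of 2 libraries. Rpl22l1 stands at −0.67 in TAK-931-1 and between −1.89 and −1.80 elsewhere, and Rpl36al and Rpl7l1 are lower against their partners in both TAK-931 libraries.

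Set against its partner within each library, a paralog is independent of the scaling between libraries. Of 7 pairs, 4 had more than 3 counts in every library and gave a ratio per kilobase of exon. Rpl22l1 stood at 28.7% and 27.0% of Rpl22, an RNA-binding large subunit protein, in Vehicle, at 62.9% in TAK-931-1 but at 27.7% in TAK-931-2. The difference of the log2 ratios was 0.59, and the exact permutation test over samples gave p = 0.667 (0.667 after Benjamini-Hochberg adjustment over the 4 pairs). TAK-931-1 alone made this difference, since without it the difference was −0.01.

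Rpl36al stood at 52.5% and 54.3% of Rpl36a, its partner on the X chromosome, in Vehicle and at 37.0% and 41.9% in TAK-931. The log2 ratio of Rpl7l1 to Rpl7 was −5.06 and −4.97 in Vehicle and −5.37 and −5.38 in TAK-931. In both pairs the groups did not overlap, and the treated libraries were lower. The differences of the log2 ratios were −0.44 and −0.36, each with an exact permutation p of 0.333, the smallest possible, and 0.444 after adjustment over the 4 pairs. The partners themselves were lower by less: the log2 fold change was −0.19 for Rpl36a, at 921.2, 859.6, 727.8 and 835.8 CPM, and −0.31 for Rpl7, at 2036, 1981, 1479 and 1753 CPM.

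The fourth pair, Rps27l and Rps27, had log2 ratios of 6.57 and 6.70 in Vehicle and 6.44 and 5.97 in TAK-931, which did not overlap, a difference of −0.43 (exact permutation p = 0.333, 0.444 after adjustment over the 4 pairs), but its Rps27 counts were low. Rps27l, a target of p53, had 154.7, 171.4, 165.5 and 129.9 CPM in Vehicle-1, Vehicle-2, TAK-931-1 and TAK-931-2, with a log2 fold change of −0.14 (SE 0.24, edgeR adjusted p = 0.737), and its groups overlapped. Rps27, its partner in the small subunit, had only 34, 34, 45 and 44 counts, and 60% of its exon bases are shared in the tables with Rps27rt on the same strand. Rps27 was the only tested gene above both Vehicle libraries in both treated libraries, and its log2 fold change was 0.28 (SE 0.57, edgeR adjusted p = 0.779).

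The other 3 pairs had no ratio because the paralog was at or under 3 counts in a library. Rpl10l, a paralog used in male germ cells, was at 0 counts in all 4 libraries. Its partner Rpl10, which completes the large subunit, was at 3139 and 2968 CPM in Vehicle and 1644 and 2471 CPM in TAK-931 (log2 fold change −0.57, SE 0.30, edgeR adjusted p = 0.333). Rpl3 and Rpl39, the partners of Rpl3l and Rpl39l, had log2 fold changes of −0.28 and −0.19.

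Very low counts in some genes stood beside exons shared with another gene. Rpl26 was at 0 counts in every library, and 95.8% of its exon bases are shared in the tables with Gm15772 on the same strand. Rpl30, which shares 76.0% with Gm12191, had 10, 9, 10 and 3 counts, and Rps27rt, whose exons lie entirely within Rps27, had 0. Rpl34, which shares 59.9% with a pseudogene named Rpl34-ps1, had 82, 108, 112 and 91 counts. The other gene of each pair was also at 0 in all 4 libraries, except Rps27 for Rps27rt. For these genes a low or absent count cannot be read as low expression. Rpl26, Rpl30, Rps27rt and Rpl10l were the 4 genes not tested.

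Per kilobase of exon, the most abundant genes in the Vehicle libraries were Rpl41 at 4706 CPM per kilobase, Rps14 at 4512, Rplp1 at 4286, Rps26 at 3863 and Rpl10 at 3841. Rpl41, which encodes the shortest protein of the large subunit, was at 1955 and 2271 CPM in Vehicle and 1432 and 1787 CPM in TAK-931. Among the paralogs, Rpl36al was at 972 CPM per kilobase, above core genes such as Rps28 at 959 and Rps19 at 934, while Rps27l was at 351, Rpl22l1 at 88.7 and Rpl7l1 at 66.6. The order depends on the exon bases listed for a gene: Rps15a, with 5134 of them, was at 1122 CPM but at 219 CPM per kilobase. Neighbours in this order were not tested against each other.

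A group of genes at the start of chromosome 7 behaved differently in the 2 TAK-931 libraries. This stretch was picked after the values were seen. Among the 75 genes with at least 1000 counts, 8 lie in its first 60 Mb, among them Rpl28, Rps19 and Rpl18. Their median log2 ratio to the Vehicle mean was 0.00 in TAK-931-1, against −0.28 in TAK-931-2. For the 61 genes on other chromosomes the medians were −0.44 and −0.25, and for the 6 genes on the rest of chromosome 7 they were −0.46 and −0.27. TAK-931-1 was below TAK-931-2 in 1 of the 8 genes, Rpl18, and in 50 of the 61.

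Rps19, a small subunit protein whose loss causes Diamond-Blackfan anaemia, was at 580.5 and 594.6 CPM in Vehicle, 662.4 CPM in TAK-931-1 but 465.4 CPM in TAK-931-2. The treated libraries lay on opposite sides of the Vehicle values, and the mean difference was within the spread of the treated pair.

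**Figure D4:**
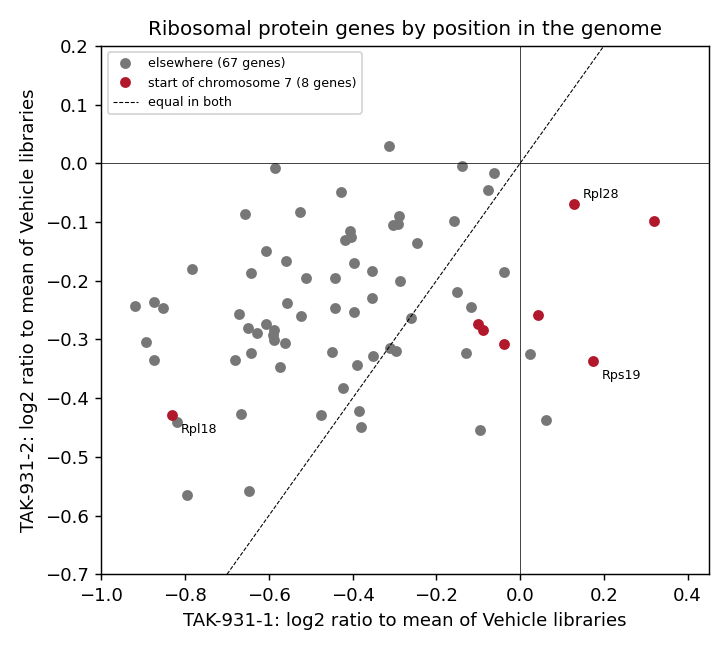
Log2 ratio to the mean of the Vehicle libraries in TAK-931-1 (x axis) and TAK-931-2 (y axis) for the 75 ribosomal protein genes with at least 1000 counts, 1 point per gene, with the 8 genes of the first 60 Mb of chromosome 7 in red. Red points other than Rpl18 lie to the right of the dashed line of equal values, and most grey points lie to its left.

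The fit of both treated libraries together called 0 genes, whereas a fit with either treated library alone called many. With TAK-931-1 left out, 42 of the 82 ribosomal protein genes tested were lower at an adjusted p below 0.05 in the edgeR fit, where 16.1% of all genes were called lower. With TAK-931-2 left out, 59 of 84 were called, 57 of them lower and 2 higher, among them Rpl22l1, where 29.8% of all genes were called lower and 58.1% in either direction. The median log2 fold change was −0.26 without TAK-931-1 and −0.42 without TAK-931-2, and the difference in the share of counts was −1.16 and −3.17 percentage points. In these fits the lone treated library is assumed to vary like the Vehicle pair, so the calls compare that library with Vehicle. With either Vehicle library left out, 0 were called, as were 0.0% of all genes, so this count says nothing particular to the ribosomal protein genes.

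Ribosomal genes under other names had values in the same direction. Rack1, a scaffold protein of the small subunit listed under its older name Gnb2l1, was at 2702, 2933, 1706 and 2390 CPM, with a log2 fold change of −0.46 (SE 0.28). Fau, which encodes a small subunit protein fused to a ubiquitin-like protein, was at 1205, 1246, 1131 and 1061 CPM, with a log2 fold change of −0.16 (SE 0.23). In both genes the treated libraries lay below both Vehicle libraries, and neither passed the edgeR test (adjusted p of 0.375 and 0.679).

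Mitochondrial ribosomal protein, ribosome biogenesis and eIF genes had lower medians than the cytosolic ribosomal protein genes. Of 77 mitochondrial ribosomal protein genes, which build the separate ribosome of mitochondria, 77 had a log2 fold change below 0, with a median of −0.66, and 73 had non-overlapping groups in the lower direction, where 32.7% of all genes did so. Of 70 ribosome biogenesis genes, which make rRNA and assemble subunits, 68 were below 0, with a median of −0.76, and 57 did not overlap. The eIF genes, which start translation, had a median of −0.51 over 51 genes, and other TOP mRNAs, which include elongation factors, had −0.22 over 23. The difference between these lists was not tested, and none of their genes passed at an adjusted p below 0.05.

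In unadjusted p below 0.05, 28 of the mitochondrial ribosomal protein genes, 16 biogenesis genes, 10 eIF genes and 1 other TOP mRNA were lower, and 0, 0, 1 and 0 were higher, where 6.55% of all genes were lower and 11.6% higher. Wdr12, a factor of large subunit assembly, was at 226 and 236 CPM in Vehicle and 39.1 and 101 CPM in TAK-931 (log2 fold change −1.73). Nop58, a core protein of box C/D snoRNPs, was at 656 and 628 CPM against 141 and 314 CPM (log2 fold change −1.50). Mrps22, of the small mitochondrial subunit, was at 48.7 and 52.0 CPM against 16.6 and 24.5 CPM (log2 fold change −1.29). All 3 genes had both treated libraries below both Vehicle libraries, and the edgeR adjusted p was 0.275 for each.

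Other extremes of these lists were Cct4, a subunit of the TRiC chaperonin, at −0.99, and Eif4ebp1, a repressor of cap-dependent translation, at −1.35. Eif5, which triggers GTP hydrolysis at start codon selection, was at −1.32. Vim, the intermediate filament of mesenchymal cells, was at 1.85 in log2 fold change, with 280, 283, 1647 and 379 CPM. Its high value stood in TAK-931-1, the library with the highest fibroblast markers, and their part in it was not tested. Eif2ak2, an interferon-induced kinase, was at 1.30, with 21.6, 18.5, 60.2 and 38.7 CPM. Each of these genes had an edgeR adjusted p of at least 0.275.

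**Figure D5:**
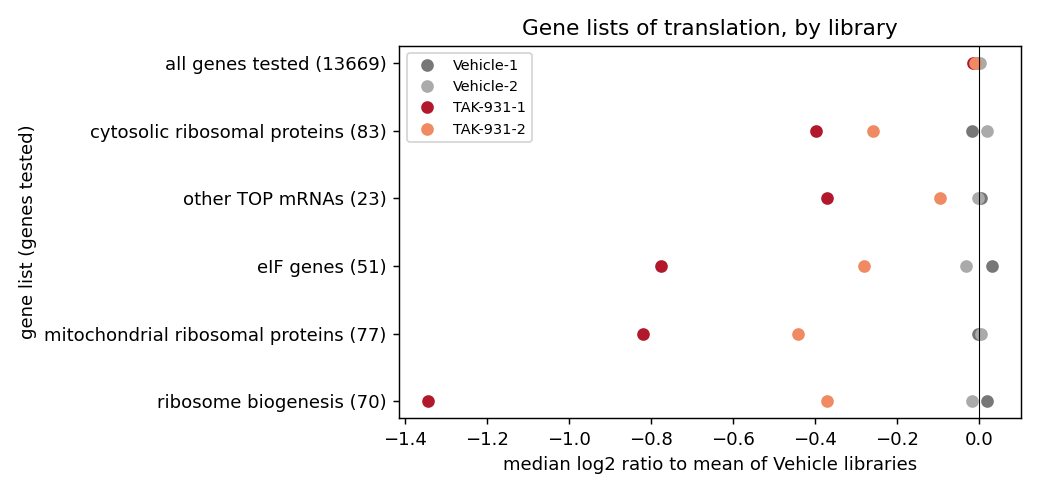
Median log2 ratio to the mean of the Vehicle libraries (x axis) of each gene list (y axis, with the number of genes tested), 1 point per library. The median of the 83 ribosomal protein genes is −0.40 in TAK-931-1, against −0.26 in TAK-931-2, that of ribosome biogenesis genes is −1.34 and −0.37, and that of all genes is close to 0.

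By library, the medians were −0.40 and −0.26 for ribosomal proteins in TAK-931-1 and TAK-931-2, −0.82 and −0.44 for mitochondrial ribosomal proteins, −1.34 and −0.37 for ribosome biogenesis, −0.78 and −0.28 for eIF genes and −0.37 and −0.10 for other TOP mRNAs. In each list TAK-931-1 was the lower library. The plasma cell markers were also lowest in TAK-931-1, and host markers highest, and their part in these medians was not tested.

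The 159 genes with a mean of more than 9 log2 CPM outside the ribosomal proteins, a limit chosen after the values were seen, had a median log2 fold change of −0.32, close to the −0.31 of the ribosomal proteins. By library their medians were −0.63 in TAK-931-1, against −0.14 in TAK-931-2, and 109 of the 159 were below 0. Their groups did not overlap for 87 genes in the lower and 28 in the higher direction, against 66 and 1 of the 83 ribosomal protein genes. The difference between the 2 lists was not tested.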

How the data were processed

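RNA from 2 Vehicle and 2 TAK-931 J558 allografts was analysed from the raw gene-level counts that the authors deposited, with 1 table for each library and no normalization. The submitters' processing notes name STAR 2.6.1c, featureCounts and the build mm10. The strand setting and annotation were not given in the sources used here. Between 17.9% and 23.9% of small counts (1 to 20) were odd, as when both mates of a pair are counted.

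Genes were kept by filterByExpr with a minimum count of 10, scaled by TMM and fitted with the robust quasi-likelihood test of edgeR 4.0.16 in R 4.3.3, two-sided, with treatment as the only term and Benjamini-Hochberg adjustment over all 13669 genes. The SE of a log2 fold change was its size divided by the square root of F. DESeq2 1.42.0 and limma 3.58.1 were alternatives. Log2 CPM used a prior count of 2. Shares and ratios were compared by exact permutation over samples. The script was tested on simulated counts. Named genes were the stalk genes, Rpsa, Rpl5, Rpl11, the paralogs with their partners, the 5 highest and 5 lowest fold changes, and the 2 highest and 2 lowest of each context list. A few genes covered by these rules are not reported here. Rps6 and some genes named for their start sequence or in the order per kilobase of exon were outside these rules. Rps19, Rpl41 and the genes at the start of chromosome 7 were named after their values were seen. The genes and lists were chosen with earlier results of these data known.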

Additional observations from a re-analysis of the deposited data

How the results depend on the processing

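The number of ribosomal protein genes called was 0 in the edgeR fit and in each alternative other than leaving out a treated library, which gave 42 without TAK-931-1 and 59 without TAK-931-2. Leaving out a Vehicle library gave 0, as for 0.0% of all genes. At an unadjusted p below 0.05, the 2 genes became 1 with median-of-ratios scaling, 1 with at least 10 counts in every library, 1 with no filter, 1 with DESeq2 and 0 with library size only, and ranged from 0 to 60 with a library left out (57 without TAK-931-1, where 40.8% of all genes passed, and 60 without TAK-931-2, where 63.1% did). Of all genes, 18.1% passed at this unadjusted p in the edgeR fit and 18.0% with median-of-ratios scaling. The share was 18.5% with at least 10 counts in every library, 15.9% with no filter, 23.5% with DESeq2 and 17.2% with library size only. The median log2 fold change of the ribosomal protein genes was −0.31. It ranged from −0.34 to −0.24 over scalings, filters and tools and from −0.42 to −0.26 with a library left out. With a library left out, the medians ranged from −0.39 to −0.10 for other TOP mRNAs, −1.37 to −0.38 for ribosome biogenesis, −0.85 to −0.45 for mitochondrial ribosomal proteins and −0.80 to −0.28 for eIF genes. Genes above both Vehicle libraries numbered 2 with at least 10 counts in every library (28.2% of all genes past that filter, with the scaling unchanged) and 1 to 9 with a library left out, where 34.2% to 46.1% of all genes did so. Counted per kilobase, the share difference was −4.23 percentage points, and read within 10 bases, the start run was present in 60.6% of genes. The causes were not tested. The signs of some values that did not pass the test changed: Rpl22l1 to −0.21, Rps4l to −0.52 and the Rpl22l1 to Rpl22 ratio to −0.01 without TAK-931-1, Rplp1 to 0.01 with median-of-ratios scaling or DESeq2 and 0.03 with at least 10 counts in every library, and Rpl39l to −0.62 with the replicate block, −1.20 with limma-voom, −0.35 without Vehicle-2 and −6.61 without TAK-931-1.

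With the replicate number as a block, 0 ribosomal protein genes were called and the median was −0.31. At an unadjusted p below 0.05 there were also 0, where 16.2% of all genes passed. The numbers were not shown to pair the samples, since the correlation of deviations between equally numbered samples was 0.00409 over all genes. The cutoffs of 1000 counts, the 10-base start and the removal of overlapping genes were chosen after seeing the data. With 2 tumours per group, differences near the standard errors of 0.22 to 0.32 in log2 could not be detected. Larger ones did not pass either, since the lowest adjusted p over all 13669 genes was 0.275 in the edgeR fit. The absence of calls therefore sets no limit on the size of a change in the ribosomal protein genes.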

Other observations

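Genes outside the ribosome in the first 60 Mb of chromosome 7 also differed from the rest of the genome in TAK-931-1. Among genes with a mean above 5 log2 CPM, the 143 in this stretch stood at a median log2 difference from the Vehicle mean of 0.34 in TAK-931-1, against −0.03 in TAK-931-2, and the 5804 elsewhere stood at −0.33 and −0.09. The stretch was chosen after the values of its ribosomal protein genes were seen, and no test was made.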
